A study of Mus musculus with 12 samples.

Results

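Inflammatory transcripts that myeloid cells are known for, the 8 genes Irg1, Il1rn, Cxcl2, Ptgs2, Fcgr2b, Il1b, Cd14 and Clec4e, were followed in 12 RNA libraries of sorted lung CD4+ T cells. These 8 genes of the 19434 counted were picked because earlier results of the same libraries showed them higher after E. coli, so their E. coli against PBS values are given as a description without a test. The 4 groups were juvenile mice given E. coli, juvenile mice given PBS, neonatal mice given E. coli and neonatal mice given PBS, with 3 libraries each. All mice were C57BL/6NJ of both sexes. They aspirated 2800000 colony forming units of E. coli or PBS at day 15 (juveniles) or day 5 (neonates), and lung cells were taken 48 h later. Each library came from a pool of mice, 2 per juvenile pool and 3 per neonatal pool, and the CD4+ cells were enriched with magnetic beads before flow sorting. In such a bulk sample, fewer cells of a type and less RNA per cell cannot be told apart.

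Macrophages, monocytes and neutrophils that sense bacterial lipopolysaccharide switch on a shared set of genes through TLR4 and the transcription factors NF-kappaB, C/EBP and AP-1. The products include fever-inducing and neutrophil-attracting signals, and brakes on the same signals. In a lung with bacterial pneumonia this is the usual programme of alveolar and recruited phagocytes, and CD4+ T cells are not its textbook source. S100a9, a subunit of the abundant neutrophil protein calprotectin, served as the neutrophil transcript against which the 8 genes were set, and S100a8 encodes its partner subunit.

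The libraries held 6035445 to 8129983 counts, so the floor of 3 counts was 0.374 to 0.494 CPM, the counts scaled to library size. Of the counted genes 11062 passed the filter on low counts, and all 8 transcripts were among them. T cell identity genes, 11 of 12 listed being present, summed to 5167 to 5566 CPM in juvenile E. coli, 6306 to 7023 CPM in juvenile PBS, 5477 to 5795 CPM in neonatal E. coli and 5597 to 6291 CPM in neonatal PBS libraries. Of the 11, 6 fell in juveniles given E. coli, Cd3d and Cd4 among them (median log2 difference -0.26), and 0 passed in neonates (edgeR adjusted p under 0.05). Markers of other cells were also read: the sums of 22 monocyte and macrophage markers were 1033 to 1506 CPM in juvenile E. coli, 403 to 642 CPM in juvenile PBS, 441 to 735 CPM in neonatal E. coli and 311 to 500.0 CPM in neonatal PBS libraries.

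Irg1, Cxcl2, Ptgs2, Il1rn, Il1b and Fcgr2b were higher after E. coli at both ages, and S100a9 is the gene they were set against. Of these, the stretches around the start of Irg1, Cxcl2, Ptgs2 and S100a9 are shown as examples. Each runs 5′ to 3′ from 250 bases before to 50 after the RefSeq start (GRCm38.p6). Capitals mark matches to the NF-kappaB consensus, the C/EBP motif TTGCNNAA and the TATA motif TATAAA, and the AP-1 motif TGANTCA was searched as well. Irg1 lies at chr14:103046762-103047061 on the plus strand, Cxcl2 at chr5:90903649-90903948 on the plus strand, Ptgs2 at chr1:150099781-150100080 on the plus strand and S100a9 at chr3:90695672-90695971 on the minus strand.
Irg1: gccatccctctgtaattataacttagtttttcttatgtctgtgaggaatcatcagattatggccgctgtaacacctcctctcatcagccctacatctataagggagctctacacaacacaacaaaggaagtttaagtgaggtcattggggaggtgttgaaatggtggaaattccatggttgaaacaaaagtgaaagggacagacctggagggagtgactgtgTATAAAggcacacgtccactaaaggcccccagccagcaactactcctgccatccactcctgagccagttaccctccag
Cxcl2: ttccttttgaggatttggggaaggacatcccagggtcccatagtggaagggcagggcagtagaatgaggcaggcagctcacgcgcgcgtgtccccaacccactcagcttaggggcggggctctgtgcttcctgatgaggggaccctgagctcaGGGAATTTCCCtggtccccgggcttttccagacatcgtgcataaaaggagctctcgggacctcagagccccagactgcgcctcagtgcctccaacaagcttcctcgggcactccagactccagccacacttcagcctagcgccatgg
Ptgs2: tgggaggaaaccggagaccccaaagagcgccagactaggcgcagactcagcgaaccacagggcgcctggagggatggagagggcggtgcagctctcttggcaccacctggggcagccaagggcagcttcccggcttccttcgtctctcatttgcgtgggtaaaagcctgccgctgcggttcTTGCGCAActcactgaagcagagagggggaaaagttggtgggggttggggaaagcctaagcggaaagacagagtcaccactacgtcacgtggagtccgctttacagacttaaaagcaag
S100a9: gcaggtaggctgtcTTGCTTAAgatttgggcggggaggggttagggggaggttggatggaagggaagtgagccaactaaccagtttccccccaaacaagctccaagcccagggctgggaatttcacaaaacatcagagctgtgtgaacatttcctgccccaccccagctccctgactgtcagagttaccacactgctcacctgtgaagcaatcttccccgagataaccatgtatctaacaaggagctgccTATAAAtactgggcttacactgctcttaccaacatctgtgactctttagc

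In these windows the capitals are a TATA match in Irg1, overlapping NF-kappaB matches of both strands in Cxcl2, a C/EBP match in Ptgs2, and a C/EBP and a TATA match in S100a9. Windows of this kind were searched for 7 of the 8 genes. The chromosome that holds Cd14 was left out of the search and of the shares over RefSeq windows. Both strands were searched, and no motif overlaps another except for the matches in Cxcl2. The NF-kappaB consensus stood in 1 of the 7 (Cxcl2), against 4.51% of 32851 RefSeq windows of the same length that were searched. AP-1 matched in 1 (Il1rn), against 7.81% of windows, and C/EBP in 2 (Ptgs2 and Clec4e), against 10.8%. TATAAA was found in 4 (Irg1, Il1b, Clec4e and 1 of the 3 windows of Il1rn), against 13.6%. The Il1rn match lay after the start and on the reverse strand. The TATAAA match of S100a9 began at the start itself, whereas those of Irg1, Il1b and Clec4e began 28, 31 and 29 bases before it. The percentages are per window, whereas the matches are counted per gene, and the 7 genes had 9 windows. These are letter matches only, and the Fcgr2b window held none of the letters searched.

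Irg1 (Acod1 in current annotation, chr14:103046977-103056573, GRCm38), the enzyme that makes itaconate in activated macrophages, was counted at 31.9, 20.4 and 21.1 CPM in the juvenile E. coli libraries. It stood at 0.288, 0.824 and 2.07 CPM after PBS at that age. In neonates the values were 3.70, 7.60 and 4.17 CPM after E. coli, against 0.595, 0.833 and 0.490 CPM after PBS. Both ages had every E. coli library above every PBS library, and every juvenile E. coli library was above every neonatal one. The E. coli over PBS difference was 4.53 ± 0.42 (log2, SE) in juveniles and 2.97 ± 0.51 in neonates.

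Il1rn (chr2:24336853-24351494) encodes the soluble antagonist that occupies the IL-1 receptor without signalling. Its values were 46.7, 47.9 and 22.2 CPM in juvenile E. coli libraries, against 2.88, 0.824 and 2.71 CPM in juvenile PBS libraries. Neonatal libraries had 4.98, 17.7 and 5.47 CPM after E. coli, against 1.49, 0.833 and 1.8 CPM after PBS. As for Irg1, no groups overlapped between treatments, and the lowest juvenile E. coli library lay above the highest neonatal one. The log2 differences of E. coli over PBS were 4.15 ± 0.51 in juveniles and 2.79 ± 0.59 in neonates.

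Il1b (chr2:129364570-129371139), the fever-inducing cytokine that Il1rn opposes, had 12.8, 23.1 and 13.5 CPM in juvenile E. coli libraries, against 2.16, 1.98 and 1.12 CPM after PBS. In neonates the values were 6.64, 15.7 and 8.21 CPM after E. coli, against 3.12, 1.53 and 2.29 CPM after PBS. Treatments did not overlap at either age, but the juvenile and neonatal E. coli ranges did. The gene overlaps the antisense transcript Il1bos, and per the labels the cDNA kit does not mark strand, so reads where the pair overlaps cannot be told apart.

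Cxcl2 (chr5:90903871-90905938), a chemokine that draws neutrophils through the receptor Cxcr2, was at 11.8, 19.6 and 16.1 CPM in juvenile E. coli libraries, against 1.30, 1.98 and 1.43 CPM after PBS. In neonates it was at 4.98, 25.3 and 6.48 CPM after E. coli, against 2.68, 2.22 and 1.31 CPM after PBS. The second neonatal E. coli library was the highest of all 12, and the other two lay below every juvenile E. coli library. Ptgs2 (chr1:150100031-150108227), the inducible cyclooxygenase that opens prostaglandin synthesis, had 21.9, 29.6 and 15.2 CPM in juvenile E. coli libraries, against 0.144, 1.65 and 2.71 CPM after PBS. Its neonatal values were 13.3, 23.8 and 14.5 CPM after E. coli, against 4.31, 2.64 and 2.61 CPM after PBS. For both genes the treatments did not overlap at either age and the E. coli ranges of the ages did.

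The remaining genes encode cell surface receptors. Fcgr2b (chr1:170958617-170976547), the inhibitory receptor for IgG, had 14.3, 25.3 and 13.3 CPM in juvenile E. coli libraries, against 7.64, 2.97 and 6.06 CPM after PBS. Its neonatal values were 5.49, 15.5 and 8.49 CPM after E. coli, against 2.97, 1.53 and 1.63 CPM after PBS. It was the 1 gene of the 8 whose E. coli difference was smaller in juveniles (1.65 ± 0.39, log2) than in neonates (2.26 ± 0.46), and it overlaps the antisense transcript Gm38204.

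Cd14, the co-receptor that hands lipopolysaccharide to TLR4, had 3.02, 9.67 and 7.37 CPM in juvenile E. coli libraries, against 2.88, 0.659 and 1.28 CPM after PBS. Neonatal libraries had 1.53, 5.73 and 2.02 CPM after E. coli, against 2.08, 0.556 and 1.63 CPM after PBS. The juvenile treatments were separated by a narrow margin and the neonatal ones overlapped. Clec4e (chr6:123281789-123289870), the lectin Mincle that binds glycolipids and damaged cells, had 43, 45 and 23 counts in juvenile E. coli libraries, against 1, 0 and 1 counts after PBS. That is a ratio of 46.4 with a 95% exact binomial interval of 12.5 to 388 for counting error. In neonates it had 8, 33 and 23 counts after E. coli, against 3, 0 and 12 counts after PBS, and these ranges overlapped.

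**Figure D1:**
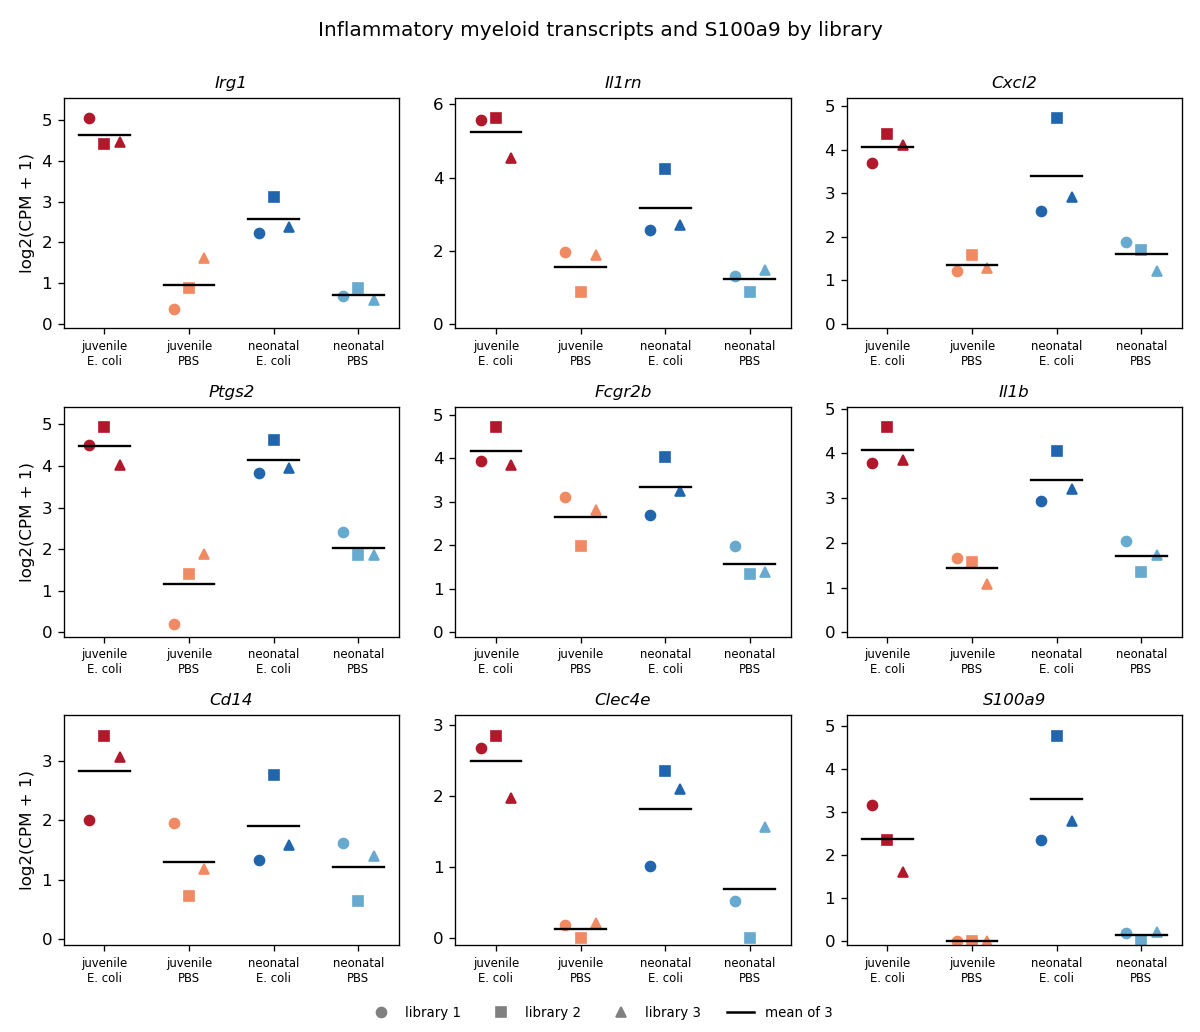
Log2(CPM + 1) of the 8 transcripts and of S100a9 (vertical axes) in the 12 libraries by group (horizontal axes); each point is 1 library, marked by its number, and the line is the mean of 3. Irg1 and Il1rn are the panels where the juvenile E. coli points lie wholly above the neonatal ones, and the second neonatal E. coli library is the highest of its group in every panel.

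Across the 8 transcripts the median E. coli over PBS difference was 3.62 on the log2 scale in juveniles and 2.34 in neonates, where the median over all tested genes was -0.012 and -0.0027. By the threshold used for all genes (edgeR quasi-likelihood, adjusted p under 0.05), 8 of 8 counted as higher in juveniles, where 15.4% of all tested genes were higher, 9.42% lower and 24.8% either, and 6 of 8 in neonates, where 1.05% were higher, 0.145% lower and 1.19% either. Because the transcripts were chosen on this contrast, these counts only describe the choice. In juveniles Cd14, at 2.01 ± 0.60, lay nearest to that limit. In neonates Il1rn and Cxcl2 lay just inside it, and Clec4e, at 1.86 ± 0.75, and Cd14, at 1.14 ± 0.65, lay outside. The remaining values were 3.33 ± 0.57 and 2.55 ± 0.54 for Cxcl2, 3.91 ± 0.46 and 2.43 ± 0.41 for Ptgs2, and 3.21 ± 0.40 and 2.14 ± 0.39 for Il1b, with juveniles first.

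**Figure D2:**
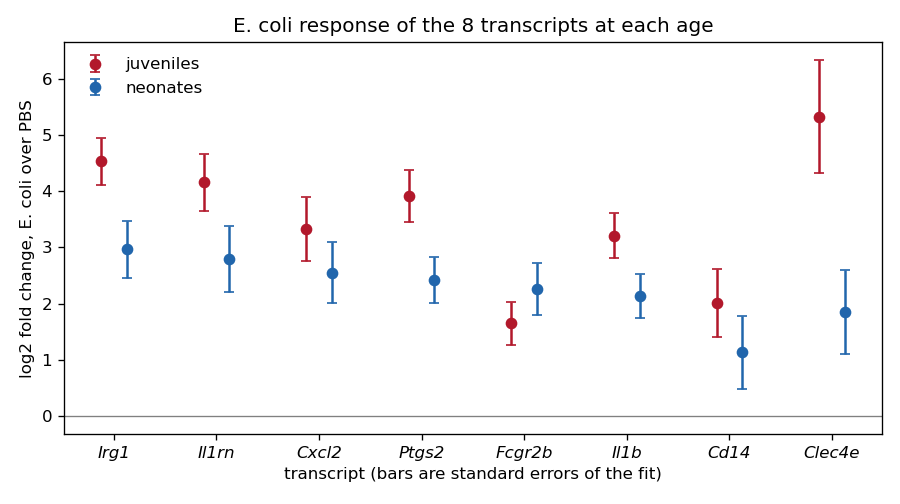
Log2 fold change of E. coli over PBS (vertical axis) for each transcript (horizontal axis) in juveniles and neonates; bars are standard errors of the edgeR fit over 12 libraries. The juvenile value is the higher for 7 of 8 transcripts, Fcgr2b being the exception, and for Clec4e in juveniles the fitted value rests on 2 counts after PBS.

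The difference between ages was then tested, a contrast within 1 treatment that did not choose the genes, although it uses the same libraries. After E. coli, Irg1 averaged 24.5 ± 6.46 CPM in juveniles and 5.16 ± 2.13 CPM in neonates (SD, n = 3 pools each). Its log2 difference was 2.24 ± 0.33, with an edgeR quasi-likelihood adjusted p of 0.000174. Il1rn averaged 38.9 ± 14.5 CPM in juveniles and 9.38 ± 7.21 CPM in neonates, a log2 difference of 2.04 ± 0.41 (edgeR adjusted p = 0.00259). Both were therefore higher in juveniles, each in 3 of 3 libraries. These 2 of 8 stand beside 11.3% of all tested genes called higher in juveniles, 6.42% lower and 17.8% in either direction, so the count is near that background.

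The other 6 did not pass this test. The differences, juvenile minus neonatal on the log2 scale, were 1.09 ± 0.54 for Cd14, 0.84 ± 0.36 for Fcgr2b, 0.78 ± 0.60 for Clec4e, 0.68 ± 0.32 for Il1b, 0.36 ± 0.33 for Ptgs2 and 0.36 ± 0.43 for Cxcl2. Their adjusted p-values by edgeR ran from 0.127 for Fcgr2b to 0.620 for Cxcl2. How many genes passed depended on the method and on 1 library. With all libraries kept, limma voom with sample weights called 5. By edgeR, without the second neonatal E. coli library, 5 of 8 were higher in juveniles, with Cxcl2 (1.46, adjusted p = 0.00419), Il1b (1.14, adjusted p = 0.0289) and Fcgr2b (1.33, adjusted p = 0.0312) added. That library was also the highest of its group in the neutrophil, macrophage, B cell, platelet and lung epithelial marker sums. It was the lowest of its group in the dendritic cell (58.7 CPM), mast cell and basophil (31.7 CPM) and T cell identity (5477 CPM) sums.

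After PBS none of the 8 differed between ages by edgeR at an adjusted p under 0.05, beside 4.08% of all tested genes (1.75% higher, 2.32% lower). All 8 had overlapping groups, and the share of all tested genes with overlapping groups was not counted. At an unadjusted p under 0.05 the count was 1, DESeq2 called 1 and limma voom with sample weights called 0. The 1 gene was Fcgr2b in both cases, at 5.55 ± 2.38 CPM in juveniles and 2.05 ± 0.806 CPM in neonates (log2 difference 1.45 ± 0.49, edgeR adjusted p = 0.118). It passed in edgeR when the second juvenile PBS library was left out (adjusted p = 0.0464). Clec4e had 2 counts over the juvenile PBS libraries and 15 over the neonatal ones, a ratio of 0.139 with an exact binomial interval of 0.0154 to 0.596 for counting error, 12 of the 15 being in 1 library.

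The difference of the E. coli responses, juvenile minus neonatal, asked whether a gene responded more at 1 age. It is formed from the responses on which the 8 genes were chosen, so its p-values for them are not independent evidence. None of the 8 passed by edgeR, beside 7% of all tested genes (5.05% higher, 1.94% lower). At an unadjusted p under 0.05 the count was 2, DESeq2 called 0 and voom called 1 (Ptgs2, adjusted p = 0.0343). The estimates were 3.47 ± 1.43 for Clec4e, 1.56 ± 0.79 for Irg1, 1.48 ± 0.66 for Ptgs2, 1.36 ± 0.88 for Il1rn, 1.07 ± 0.58 for Il1b, 0.87 ± 0.90 for Cd14, 0.78 ± 0.83 for Cxcl2 and -0.61 ± 0.61 for Fcgr2b. So for Irg1 and Il1rn the higher level in juveniles after E. coli was called, and a larger juvenile response was not. Without the second neonatal E. coli library, 1 gene passed, Cxcl2 (1.85, adjusted p = 0.0437 by edgeR).

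S100a9 itself had 64, 30 and 16 counts in juvenile E. coli libraries, against 0 in each juvenile PBS library, which is at least 10.1-fold higher at the floor of 3 counts per library. Neonatal libraries had 32, 212 and 41 counts after E. coli, against 1, 0 and 1 counts after PBS. Between ages after E. coli it was at 4.74 ± 3.05 CPM in juveniles and 12.1 ± 12.4 CPM in neonates. That difference, -1.36 ± 0.62 on the log2 scale, did not pass (edgeR adjusted p = 0.154). It rested on the second neonatal library, at 26.4 CPM beside 4.08 and 5.90 CPM, and was -0.076 ± 0.52 without it (adjusted p = 0.951). S100a8 gave -1.07 ± 0.60 over all libraries (adjusted p = 0.242).

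Within the neonatal E. coli libraries all 8 transcripts had the same order as S100a9, highest in the second, then the third, and lowest in the first. There S100a9 spanned a 6.47-fold range over the 3 libraries and the 8 transcripts spanned 1.79-fold to 5.08-fold. The monocyte and macrophage and the lung epithelial marker sums had the same neonatal order. The B cell, dendritic cell and T cell identity sums did not. The share of all genes with the order of S100a9 was not counted at either age. In juveniles 0 of the 8 had the full order of S100a9. S100a9 was highest in the first E. coli library, Irg1 was highest there as well, and the other 7 were highest in the second. Of the 3, the second had the highest monocyte and macrophage, dendritic cell, mast cell and basophil, endothelial and lung epithelial sums. It had the lowest B cell (31.6 CPM) and T cell identity (5167 CPM) sums.

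Pooled over the 6 E. coli libraries, a correlation with S100a9 could be given for the 6 transcripts whose ages overlapped, on log2(CPM + 1). Pearson's r lay between -0.043 for Cd14 and 0.42 for Ptgs2, with exact permutation p-values of 0.425 to 0.95, and 0.927 to 0.95 after adjustment over the 6. Spearman's rho lay between -0.086 for Cd14 and 0.54 for Clec4e, with exact permutation p-values of 0.297 to 0.919, and 0.746 to 0.919 after adjustment. Leaving out the 2 libraries with S100a9 farthest from its median gave r of -0.24 for Cd14 to 0.42 for Clec4e. For Irg1 and Il1rn the ages formed separate clusters and no pooled r was taken.

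As deviations from each age's mean, the relation to S100a9 was positive for all 8, with a median r of 0.742, and was largest for Irg1 and Il1rn at 0.95 each. No exact permutation p within ages was under 0.05, where 0.0278 is the smallest that 36 orders can give. Those for Irg1 and Il1rn were 0.0556, and the adjusted values over the 8 ran from 0.222 to 0.583. The value rests on single libraries, since without the second neonatal E. coli library the median r was 0.369 and without the first juvenile one it was 0.954.

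Counts of each transcript were also set per S100a9 count in the same library, as a description. S100a9 had 110 counts over the juvenile and 285 over the neonatal E. coli libraries. A gene at 1 level in both ages would thus tend to a higher ratio in juveniles. The share of all genes whose ratios separate the ages was not counted. Irg1 had 3.97, 4.93 and 10.4 counts per S100a9 count in juvenile E. coli libraries, against 0.906, 0.288 and 0.707 in neonatal ones. Il1rn had 5.80, 11.6 and 10.9 per S100a9 count in juveniles, against 1.22, 0.670 and 0.927 in neonates. For both genes the 3 juvenile values lay above the 3 neonatal ones. Binomial intervals cover counting error only, and libraries of 1 age also differed beyond them: for Irg1, 3.01 to 5.31 in the first and 6.2 to 18.6 in the third juvenile library. S100a8 kept nearly 1 ratio, at 0.750, 0.900 and 0.750 per S100a9 count in juveniles and 0.594, 0.618 and 0.829 in neonates.

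The other ratios fell between these patterns. Clec4e had 0.672 to 1.5 counts per S100a9 count in juvenile E. coli libraries and 0.156 to 0.561 in neonatal ones, with no overlap of the library values. Cxcl2 (1.47 to 7.94 in juveniles, 0.958 to 1.22 in neonates) and Fcgr2b (1.78 to 6.56 in juveniles, 0.585 to 1.44 in neonates) were separated likewise in their library values. For Clec4e, Cxcl2 and Fcgr2b the intervals for counting error overlapped between ages. For Cxcl2 they were 1.06 to 2.05 in the first juvenile and 0.744 to 2.01 in the first neonatal library. Ptgs2, Il1b and Cd14 overlapped between ages. Over the 8 genes together the ratio was 18.4, 43.9 and 55.0 in juveniles, against 10.2, 4.37 and 8.93 in neonates.

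**Figure D3:**
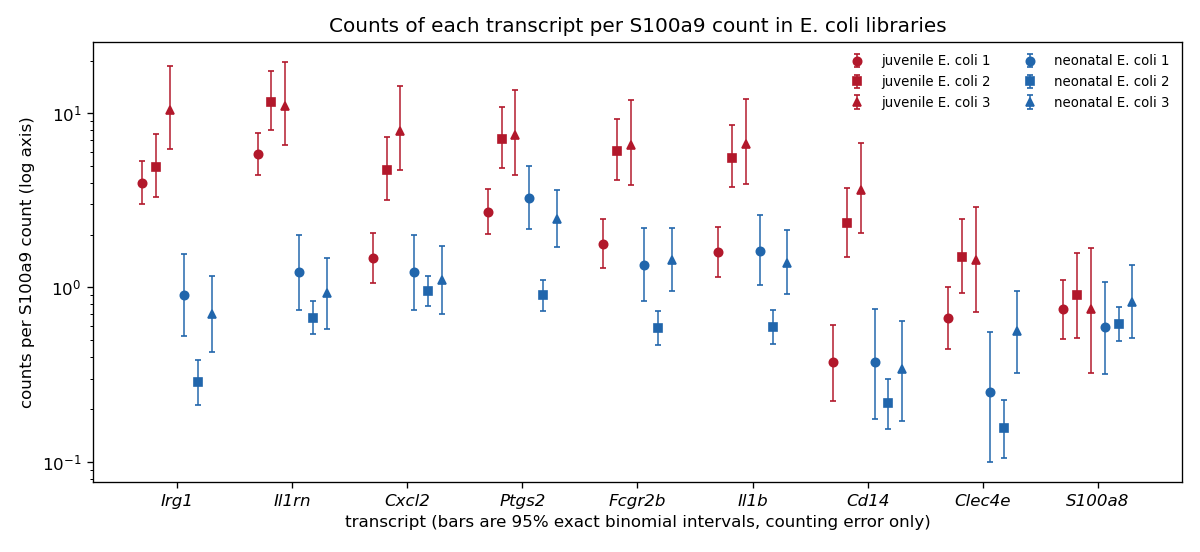
Counts of each transcript per S100a9 count (vertical log axis) in the 6 E. coli libraries, by transcript (horizontal axis), with S100a8 for comparison; bars are 95% exact binomial intervals that cover counting error only. Irg1 and Il1rn stand 3.97 to 11.6 in juveniles and 0.288 to 1.22 in neonates, whereas S100a8 stays between 0.594 and 0.900 in all 6.

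The transcripts were also read where S100a9 was at or near 0. The juvenile PBS libraries held 121, 66 and 110 counts of the 8 genes together with 0 S100a9 counts, and the neonatal PBS libraries held 119, 73 and 84 with 1, 0 and 1. In summed CPM this was 10.9 to 17.5 in juvenile PBS and 10.1 to 17.7 in neonatal PBS libraries. After E. coli the sums were 112 to 182 CPM in juveniles and 41.6 to 115 CPM in neonates.

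Marker lists of other cells were read in every library, and their part in the levels of the 8 transcripts was not tested. The 16 neutrophil markers summed to 17.4 to 38.0 CPM in juvenile E. coli, 0.330 to 4.03 CPM in juvenile PBS, 14.8 to 87.1 CPM in neonatal E. coli and 0.972 to 3.42 CPM in neonatal PBS libraries. Of these, 3 were at 0 in juvenile E. coli, 10 in juvenile PBS (S100a9, Ly6g and Cxcr2 among them), 2 in neonatal E. coli (Ly6g and Elane) and 6 in neonatal PBS libraries. The monocyte and macrophage sums given above had every juvenile E. coli library above every neonatal one, as Irg1 and Il1rn did, and 22 of the 22 markers were read in both E. coli groups. Of 19 tested, 12 rose and 2 fell in juveniles given E. coli, and 1 rose in neonates, where the median was 0.74. The 2 that fell were Chi3l3, from a mean of 33.3 CPM in juvenile PBS to 1.96 CPM in juvenile E. coli libraries, and Ear2, from 3.84 to 0.603 CPM. Ccr2, which T cells also carry, made up 404 CPM of the juvenile E. coli mean of 1236 CPM. In neonatal E. coli libraries it made up 93.0 CPM of a mean of 565 CPM. By library Ccr2 ran from 366 to 433 CPM in juvenile and from 61.5 to 130 CPM in neonatal E. coli libraries. Without it the first juvenile sum falls below the second neonatal one, so the separation of the sums by age depends on Ccr2.

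Dendritic cell markers, 10 of 10 read in every group, summed to 194 to 268 CPM in juvenile E. coli, 88.6 to 110.4 CPM in juvenile PBS, 58.7 to 75.3 CPM in neonatal E. coli and 44.0 to 60.3 CPM in neonatal PBS libraries. Siglech alone, a plasmacytoid dendritic cell gene, averaged 175 CPM of the juvenile E. coli mean of 235 CPM. Of 8 tested, 3 rose in juveniles given E. coli and 0 in neonates. The 11 lung epithelial markers summed to 92.3 to 207 CPM, 36.8 to 44.1 CPM, 65.2 to 178 CPM and 49.4 to 88.5 CPM in the same order. Of 7 tested, 2 rose in juveniles given E. coli, the club cell gene Scgb1a1 and the adhesion gene Cdh1, which some leukocytes also express, and 0 rose in neonates.

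Of 7 tested endothelial markers, 5 rose in juveniles given E. coli and 1 fell, with a median log2 difference of 2.63, and 0 passed in neonates. Kdr, an endothelial growth factor receptor, averaged 20.5 CPM in juvenile E. coli, 1.77 CPM in juvenile PBS, 5.64 CPM in neonatal E. coli and 5.65 CPM in neonatal PBS libraries. The response of Kdr and Cdh5 was larger in juveniles (3.53, edgeR adjusted p = 0.0127, and 2.58, adjusted p = 0.0425). The 10 listed markers summed to 228 to 250.3 CPM in juvenile E. coli and 229 to 244 CPM in juvenile PBS libraries. Most of that was Pecam1, the gene that fell, which T cells also carry and which averaged 187 CPM in juvenile E. coli and 227 CPM in juvenile PBS libraries. B cell markers stayed between 31.6 and 59.7 CPM in all 12 libraries, and 0 of 9 passed in either response.

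**Figure D4:**
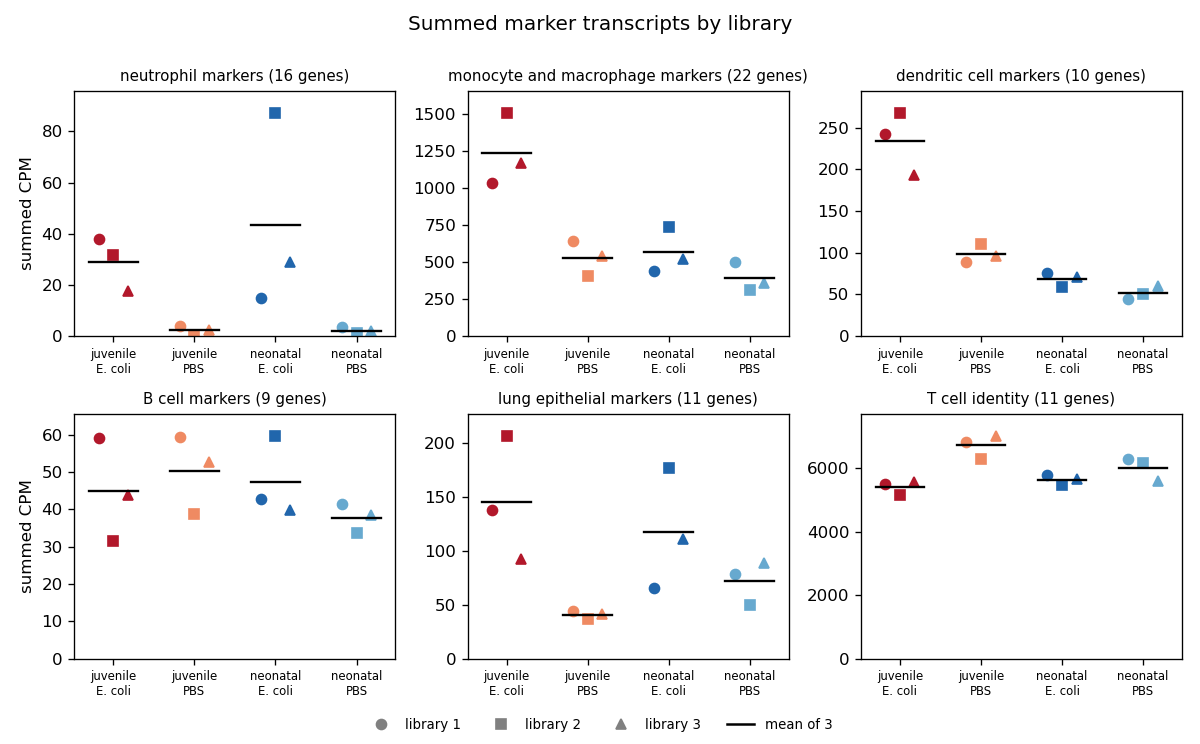
Summed CPM of marker lists (vertical axes) in the 12 libraries by group (horizontal axes); each point is 1 library and the line is the mean of 3. Macrophage and dendritic cell sums are highest in the juvenile E. coli libraries, the neutrophil sum is highest in 1 neonatal E. coli library at 87.1 CPM, and T cell identity genes stay at 5167 CPM or above.

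Genes of the same pathways were counted from lists that leave the 8 transcripts out, to be read beside the shares over all tested genes given above and their median difference between ages of -0.016 after E. coli. Of 13 tested genes of the IL-1 family, its receptors and the inflammasome, 7 were higher and 0 lower in juveniles than in neonates after E. coli, with a median log2 difference of 0.88 (edgeR adjusted p under 0.05). Casp1, which cleaves the Il1b precursor, averaged 16.0 ± 4.6 CPM in juveniles and 4.70 ± 1.1 CPM in neonates (log2 difference 1.77 ± 0.30, edgeR adjusted p = 0.000613). Casp4, the sensor of cytosolic lipopolysaccharide, averaged 23.6 ± 7.0 CPM in juveniles and 8.04 ± 2.4 CPM in neonates (1.55 ± 0.26, adjusted p = 0.000623). Il1r2, the decoy receptor, was higher in juveniles as well (2.49 ± 0.50, adjusted p = 0.00266). The other four were the pore former Gsdmd (0.62) and Il18r1 (1.03), Il18rap (1.14) and Il1rl1 (2.55), receptor chains for IL-18 and IL-33 that T cells also carry.

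After PBS 3 of these 13 were higher in juveniles (Il1r2, Il18r1 and Il1rl1) and 0 lower. Of the 13, 10 rose in juveniles given E. coli and 2 in neonates, the neonatal genes being Il1a, a cytokine that signals through the same receptor as Il1b, and Il1r1, that receptor. Il1a averaged 13.3 CPM in juvenile E. coli, 0.518 CPM in juvenile PBS, 7.19 CPM in neonatal E. coli and 0.948 CPM in neonatal PBS libraries. Its rise was 4.63 ± 0.49 on the log2 scale in juveniles (edgeR adjusted p = 1.15e-05) and 2.90 ± 0.45 in neonates (adjusted p = 0.00490). The response differed between ages for 2, Il18rap (0.84 ± 0.18, adjusted p = 0.0101) and Casp4 (1.95 ± 0.40, adjusted p = 0.00991), both larger in juveniles.

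The myeloid chemokine list had 8 tested genes, Cxcr2 and the chemokines Ccl2, Ccl3, Ccl4, Ccl6, Ccl7, Ccl9 and Ccl12, since the other CXCR2 ligands on it (Cxcl1, Cxcl3, Cxcl5 and Ppbp) did not pass the filter on low counts. Of the 8, 3 were higher in juveniles after E. coli and none lower, with a median of 0.76. These were the monocyte and lymphocyte attractants Ccl3 (0.997 ± 0.33, edgeR adjusted p = 0.0485), Ccl4 (2.34 ± 0.53, adjusted p = 0.00600) and Ccl12 (2.01 ± 0.32, adjusted p = 0.000456). None of the 8 passed after PBS. Cxcr2, the receptor for Cxcl2, did not pass between ages after E. coli, at 1.77 CPM in juveniles and 1.55 CPM in neonates, and was the 1 gene of the list that rose in neonates given E. coli, while 6 rose in juveniles.

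Of 16 genes of lipopolysaccharide and TLR sensing, 5 were higher and 1 lower in juveniles after E. coli, with a median of 0.45, and none passed after PBS. Tlr4, the receptor that Cd14 serves, averaged 8.05 ± 2.3 CPM in juveniles and 2.54 ± 2.0 CPM in neonates (1.64 ± 0.49, edgeR adjusted p = 0.0299). Ly96, its partner MD-2, averaged 10.6 CPM in juveniles and 5.74 CPM in neonates (0.88 ± 0.23, adjusted p = 0.0168), and its response was larger in juveniles (1.59 ± 0.35, adjusted p = 0.0132). The lower gene was Traf6, an adaptor that many cell types use, at 202 ± 17.8 CPM in juveniles and 243 ± 18.5 CPM in neonates (adjusted p = 0.0401). The E. coli response itself had 6 higher and 1 lower (Traf6) in juveniles and 0 in either direction in neonates.

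Of 12 tested genes of prostaglandin and leukotriene synthesis and action, 5 were higher in juveniles after E. coli and none lower, with a median of 0.82. Pla2g4a, the phospholipase that frees arachidonic acid for Ptgs2, averaged 5.95 ± 1.7 CPM in juveniles and 2.57 ± 0.86 CPM in neonates (1.2 ± 0.34, edgeR adjusted p = 0.0250). Ptger4, a receptor for prostaglandin E2 that T cells also carry, was higher in juveniles both after E. coli (0.89 ± 0.12, adjusted p = 7.65e-05) and after PBS (0.52 ± 0.12, adjusted p = 0.0220). In juveniles given E. coli 7 of the 12 rose, and in neonates 0.

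All 9 genes of the Fc gamma receptor list rose in juveniles given E. coli, and 1, the signalling chain Fcer1g, rose in neonates. Of the 9, 8 were higher in juveniles than in neonates after E. coli, with a median of 1.34, beside 2 after PBS (Syk and Fgr, kinases of the receptor pathway). Fcgr1, the high-affinity activating receptor, averaged 10.1 ± 3.4 CPM in juveniles and 3.95 ± 1.8 CPM in neonates (1.34 ± 0.40, edgeR adjusted p = 0.0297). Fcgr4 averaged 4.36 ± 2.1 CPM in juveniles and 0.558 ± 0.24 CPM in neonates (2.90 ± 0.69, adjusted p = 0.00876).

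Around Clec4e, 5 of 11 tested genes of the Mincle lectin family and CARD9 signalling were higher in juveniles after E. coli and none lower, with a median of 0.91, beside 2 after PBS. Fcer1g and Syk are on this list and on the Fc gamma list. Clec4d, the sister lectin that pairs with Mincle, did not pass between ages, at 1.97 CPM in juveniles and 1.26 CPM in neonates after E. coli. Malt1, a signalling protease that lymphocytes also use, was at 279 ± 14 CPM in juveniles and 179 ± 7.8 CPM in neonates (0.64 ± 0.08, edgeR adjusted p = 5.14e-05). In juveniles given E. coli 9 of the 11 rose, and in neonates 1.

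Of 16 tested genes that macrophages induce with lipopolysaccharide, 8 were higher in juveniles after E. coli and none lower, with a median of 0.86, and 1 after PBS, Il10. Il10, an anti-inflammatory cytokine that T cells make too, averaged 43.4 CPM in juvenile E. coli, 6.69 CPM in juvenile PBS, 3.32 CPM in neonatal E. coli and 1.55 CPM in neonatal PBS libraries. Its difference between ages was 3.70 ± 0.37 after E. coli (edgeR adjusted p = 6.14e-06) and 2.09 ± 0.49 after PBS (adjusted p = 0.0234). Tnf did not pass between ages after E. coli, at 12.8 CPM in juveniles and 10.9 CPM in neonates. Saa3, an acute-phase protein, was at 1.70 ± 0.49 CPM in juvenile and 3.18 ± 1.6 CPM in neonatal E. coli libraries and at 0 in all 6 PBS libraries.

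The 10 genes whose profile over the 12 libraries was most like the mean of the 8 transcripts, by Pearson's r of log2(CPM + 1), were Il17a (0.978), Il1a (0.974), Inhba (0.973), Litaf (0.969), Mmp14 (0.961), C3 (0.961), Ccl3 (0.959), Gp49a (0.956), Ccl7 (0.956) and Adam9 (0.952). The 12 libraries share 2 treatments and 2 ages, so r follows those groups and is a description. Il17a, a cytokine of T cells, averaged 2.65 ± 0.45 CPM in juvenile E. coli and 1.39 ± 0.53 CPM in neonatal E. coli libraries and was at 0 in all 6 PBS libraries. Litaf, a lipopolysaccharide-induced factor, averaged 75.3 CPM in juvenile E. coli, 21.7 CPM in juvenile PBS, 37.8 CPM in neonatal E. coli and 20.7 CPM in neonatal PBS libraries.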

How the data were processed

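RNA of lung CD4+ T cells was measured in 12 libraries from pooled mice. Per the labels, cDNA was made with a kit that does not mark strand, amplified by PCR and read as paired ends of 100 bases. Per the submitters' processing notes, the tools named were CASAVA 1.8.4 and STAR, with GRCm38 (mm10). The deposited values are whole-number counts per gene symbol, not normalized, which the authors made with SeqMonk as the table is named. Annotation, strand setting and filters: not given in the sources used here. DNA methylation data were not analysed here.

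Genes were filtered with filterByExpr (minimum count 10, minimum total 15). Contrasts between group means were tested with the quasi-likelihood F test of edgeR 4.0.16 in R 4.3.3, fitted to all 12 libraries after TMM normalization, with Benjamini-Hochberg adjustment over 11062 genes and a threshold of 0.05. Where no tool is named an adjusted p is from edgeR, and DESeq2 1.42.0 and limma 3.58.1 (voom with sample weights) were alternatives. CPM are counts scaled by library total and TMM factor, with SD over the 3 libraries of a group, and fold changes on the log2 scale carry their SE. Libraries are separate pools, so p-values measure the spread between pools. The code was tested on simulated data with 200 changed genes. Libraries of a group all differed by more than sampling noise (chi-square divided by its degrees of freedom, 4.00 to 20.7).

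Relations to S100a9 used log2(CPM + 1), a two-sided exact permutation test of all 720 orders over 6 libraries, or of 36 orders within ages. Ratios of counts have 95% exact binomial intervals. Intervals and floors cover counting error only, since PCR copies without molecular identifiers are not independent molecules. Positions are GENCODE M21, and start windows are RefSeq. The text names the 8 transcripts, S100a9, called or nearest family genes of each list, and the 10 genes with the most similar profile among those averaging 0 or more in log2 CPM. The transcripts, gene lists and tests were chosen with earlier results of these data known.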

Additional observations from a re-analysis of the deposited data

How the results depend on the processing

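The levels of Irg1 and Il1rn stayed higher in juveniles than in neonates after E. coli, with the test passed, under every alternative run (DESeq2, voom, other filters, other groups, a replicate block, a covariate, each library left out). The transcripts called in that contrast were 2, against 5 with voom, 4 with log2(S100a9 CPM + 1) as a covariate, and 2 to 5 with 1 library left out. After PBS DESeq2 called 1, and leaving out 1 library gave 0 to 1. For the difference of responses voom called 1, the covariate 1 (Il1rn, 2.15), and leaving out 1 library gave 0 to 1. The covariate, chosen after seeing the data, moved the median E. coli difference to 2.33 from 3.62 in juveniles and to 0.49 from 2.34 in neonates, where 1 library left out gave 1.73 to 2.67; S100a9 had 0 or 1 count in each PBS library. With it, the neonatal differences turned to -0.24 for Cd14 and -0.0039 for Clec4e. The other sign changes were these, and the cause was not tested: Irg1 after PBS was -0.32 with voom and -0.25 to 1.15 with 1 library left out, Cd14 after PBS -0.53 to 0.64 with 1 library left out (-0.53 without the first juvenile, -0.16 without the second neonatal library), Cxcl2 after E. coli -0.018 to 1.46, the lowest without the first neonatal library. The median of the 8 after PBS, -0.084, was -0.41 to 0.28, above 0 without the second juvenile (0.053) and the first neonatal library (0.28).

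Replicate numbers did not pair the libraries, with correlations of same-numbered libraries of -0.190 to 0.209, and a replicate block left the called transcripts at 2, 0 and 0. Over all genes the calls for the juvenile response were 2747, against 4480 with voom and 195 with the covariate; for the neonatal response 132, against 238 with DESeq2, 312 with voom, 320 with its 2 groups alone and 0 with the covariate; for ages after E. coli 1964, against 3810 with voom; after PBS 451, against 729 with DESeq2, 927 with voom and 280 with its 2 groups alone; and for the difference of responses 774, against 2300 with voom. With 1 library left out these were 1656 to 3204, 55 to 126, 1108 to 2063, 177 to 671 and 368 to 1553. Depth limits the PBS levels most: S100a9 had 0 to 1, Clec4e 0 to 12, Irg1 2 to 13 and Cd14 4 to 20 counts per library. S100a9 between ages after E. coli was -1.99 to -0.076 with 1 library left out.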
